A study of Mus musculus with 22 samples.

Results

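Passage of a cell from G1 into S phase is set by a small group of proteins. D-type cyclins (Ccnd1, Ccnd2 and Ccnd3) bind and activate the kinases Cdk4 and Cdk6, which phosphorylate the retinoblastoma protein and so release E2F transcription factors. Inhibitors of the INK4 family (here Cdkn2a, Cdkn2c and Cdkn2d) bind Cdk4 and Cdk6 themselves. The Cip/Kip inhibitors (here Cdkn1a, encoding p21, and Cdkn1b, encoding p27) instead bind cyclin-CDK complexes and restrain Cdk2. In blood formation these genes are known for balancing the quiescence of stem cells against the proliferation of progenitors.

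These 10 genes form a list by function, and no acetylation value enters the rule that chose them. They were examined among 21938 protein-coding genes in the H3K27ac profile of myeloid progenitors that lack exons 9 and 10 of Bcor. H3K27ac, acetylation of histone H3 at lysine 27, marks active promoters and enhancers. For each gene, all peaks overlapping its body or lying within 20 kb of it were collected. Peaks were classed as TSS peaks if they came within 2.5 kb of a transcription start site (TSS) annotated for the gene, as intragenic if they otherwise overlapped its body, and as distal if they did neither.

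The series comprised 22 chromatin immunoprecipitation sequencing (ChIP-seq) and input samples in 11 groups, of which the 3 H3K27ac libraries of BcorΔE9-10 KL cells were analysed here and 19 samples were not. KL cells are lineage-negative, cKit-positive, Sca1-negative bone marrow progenitors. The donors were male C57BL/6 mice of genotype Bcorfl/y carrying scl-Cre-ERT, a tamoxifen-dependent Cre recombinase driven by an enhancer active in haematopoietic stem cells. Tamoxifen was injected at 1 mg per day for 5 days when mice were 3 to 6 months old, and cells were taken 20 weeks later. The series holds no BcorWT library of this mark, so every value below describes the mutant cells alone. The labels number the 3 libraries as replicates, and the study's methods state that cells came from 3 mice. Peak lists of acetylation cannot check the Bcor deletion itself.

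The lists held 23410, 25963 and 23758 peaks, and the depth recovered from the peak statistics was 18.04, 18.92 and 19.26 M reads. A peak's fold enrichment is the number of fragments at its summit over the local background of that library, as the authors' peak caller gave it. Because the lists hold called peaks only, with at least 8, 8 and 9 fragments at a summit, a gene without a peak may still carry weaker acetylation. In a bulk sample, acetylation in few cells and weak acetylation in all cells cannot be told apart. All 6 progenitor markers (Kit, Myb, Gata2, Spi1, Cebpa and Runx1) had a TSS peak in every library, with mean fold enrichments from 6.29 to 9.77. Of the genes encoding antigens that the sort removed, Itgam, Ly6g and Ly6a had no TSS peak, and Cd5 had one in all 3 libraries (mean 5.01).

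The coding promoters of Cdkn1a and of Ccnd3 differed in acetylation and those of Cdkn2a had no peak, and these promoters are therefore shown before the values. RefSeq promoter entries (GRCm38.p6) matched 8 of the 10 genes with 12 start sites. Ccnd1 and Ccnd2 were not matched. Each sequence below spans 200 bases, from 250 to 51 bases before the annotated start, on the strand of the gene. Capitals mark any match, on either strand, to the motifs GGGCGG (GC box), TTTCCCGC, TTTCGCGC, TTTGCCGC or TTTGGCGC (E2F), CCGGAAGT (ETS), TGANTCA (AP-1), TGACGTCA (CRE), CCAAT, the TATA box TATAAA and the E-box of letters CACGTG. The first pair is Cdkn1a, the second Ccnd3 and the third Cdkn2a.
Cdkn1a upstream promoter, chr17:29090729-29090928, plus strand: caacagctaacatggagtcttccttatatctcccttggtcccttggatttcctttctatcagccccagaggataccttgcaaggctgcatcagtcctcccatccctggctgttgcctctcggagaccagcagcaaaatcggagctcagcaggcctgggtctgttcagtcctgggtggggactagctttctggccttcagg
Cdkn1a second promoter, chr17:29093519-29093718, plus strand: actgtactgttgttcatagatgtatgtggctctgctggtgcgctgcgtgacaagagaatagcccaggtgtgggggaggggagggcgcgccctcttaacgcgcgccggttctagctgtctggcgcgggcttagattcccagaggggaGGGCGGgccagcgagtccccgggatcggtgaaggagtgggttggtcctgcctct
Ccnd3 upstream promoter, chr17:47504801-47505000, plus strand: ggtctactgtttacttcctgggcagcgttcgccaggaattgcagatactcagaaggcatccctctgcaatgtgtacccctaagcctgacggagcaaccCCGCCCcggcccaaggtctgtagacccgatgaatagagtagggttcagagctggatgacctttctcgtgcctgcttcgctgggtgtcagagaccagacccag
Ccnd3 internal promoter, chr17:47593217-47593416, plus strand: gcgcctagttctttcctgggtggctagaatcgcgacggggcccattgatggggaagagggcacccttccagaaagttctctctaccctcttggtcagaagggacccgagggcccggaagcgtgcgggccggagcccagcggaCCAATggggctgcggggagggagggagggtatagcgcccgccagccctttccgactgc
Cdkn2a upstream (ARF) promoter, chr4:89294670-89294869, minus strand: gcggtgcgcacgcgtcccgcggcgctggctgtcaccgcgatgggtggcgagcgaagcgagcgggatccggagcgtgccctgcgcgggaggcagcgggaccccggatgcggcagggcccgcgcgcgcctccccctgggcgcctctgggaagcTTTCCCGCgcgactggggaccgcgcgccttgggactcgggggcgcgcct
Cdkn2a internal (INK4a) promoter, chr4:89282243-89282442, minus strand: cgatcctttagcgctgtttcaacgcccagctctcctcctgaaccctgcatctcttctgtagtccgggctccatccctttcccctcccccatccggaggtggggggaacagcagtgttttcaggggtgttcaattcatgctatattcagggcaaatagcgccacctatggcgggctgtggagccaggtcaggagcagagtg

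The sequences differed mainly in CpG content. The upstream Cdkn1a promoter held 2 CpG dinucleotides in 200 bases, with an observed over expected ratio of 0.134, and the second promoter held 14, with a ratio of 0.754. The Ccnd3 pair held 8 and 14, and the ARF and INK4a promoters of Cdkn2a held 34 and 7. The median over the 12 start sites was 13.5 CpG and 63.5% G and C, against 4 CpG and 51.5% over all 32841 RefSeq promoters of the same length. A GC box was present in 6 of the 12 sequences and in 24.6% of all promoters. One of the 12, the ARF promoter, held an E2F motif, which 1.46% of all promoters held. No ETS, AP-1 or CRE motif was found in these windows (1.40%, 5.58% and 0.828% of all promoters), CCAAT was found in 3 (28.4%), TATAAA in 1 (9.14%) and the E-box in 2 (4.34%). The windows end 51 bases before the start site, so motifs closer to it, including any TATA box there, were not searched. The ARF promoter held the most CpG of those printed and had no peak.

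H3K27ac was present at the start sites of nearly all of these genes. A TSS peak was present in all 3 libraries at 9 of the 10 genes, and 43.9% of all protein-coding genes (9637 of 21938) met the same criterion. Cdkn2a was the exception and had no peak of any class. The plot of fold enrichment by gene and library shows the level at each gene. Over the 9 genes the median TSS fold enrichment was 7.51, 8.13 and 9.43 in replicates 1, 2 and 3, below the medians of 9.36, 9.78 and 11.3 over all genes with a TSS peak in every library. In 7 of the 9 genes replicate 3 was the highest, and this was so in 61.8% of all marked genes. The median ratio of replicate 3 to the mean of the other libraries was 1.21 in these genes and 1.16 over all marked genes.

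**Figure D1:**
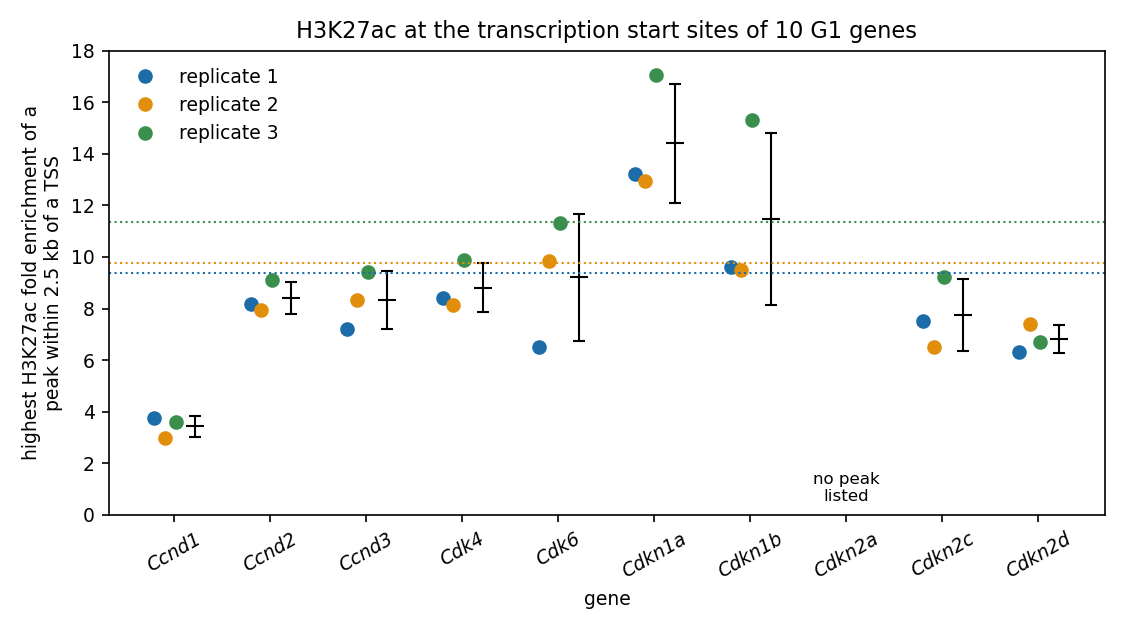
Highest H3K27ac fold enrichment of a peak within 2.5 kb of a TSS (y axis) for each of the 10 genes (x axis). Coloured points are the 3 BcorΔE9-10 libraries, black bars are the mean ± SD (n = 3), and dotted lines are the medians over all protein-coding genes with a TSS peak in every library. Cdkn1a, at 12.9 to 17.1, lay above the dotted lines in every library, Ccnd1, at 2.98 to 3.76, lay lowest, and Cdkn2a had no peak.

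Among the D-type cyclins, Ccnd2 and Ccnd3 carried comparable TSS acetylation and Ccnd1 very little. The fold enrichment at Ccnd2 was 8.19, 7.94 and 9.10 (mean 8.41 ± 0.613, SD, n = 3). At Ccnd3 it was 7.19, 8.33 and 9.43 (8.32 ± 1.12). The ranges of Ccnd2 and Ccnd3 overlapped and their order changed between libraries. Ccnd1 reached only 3.76, 2.98 and 3.58 (3.44 ± 0.408), with every library below every value of the other D cyclins. The Ccnd1 peak rested on 10, 8 and 10 fragments at its summit, for which the exact 95% Poisson intervals were 4.80 to 18.4, 3.45 to 15.8 and 4.80 to 18.4. These intervals cover counting error only. Ranked by its mean, Ccnd1 stood higher than 0.166% of the marked protein-coding genes, whereas Ccnd2 and Ccnd3 stood at 36.8% and 36.0%.

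The Ccnd1 peak common to all libraries was short, covering chr7:144939230-144939681 at the 5′ end of the gene, and replicate 1 added a further TSS peak of 283 bp. No intragenic peak was listed in the 9.995 kb of Ccnd1. The single distal region, 14.2 kb from the gene, had fold enrichments of 4.40, 7.35 and 6.94 (6.23 ± 1.60) and lay within 2.5 kb of start sites of LTO1 and Bc1, so it can be counted for those genes as well. It exceeded the TSS peak of Ccnd1 in each library.

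Ccnd2 presented the simplest window, with 2 peaks in every library, all of them classed as TSS peaks. Only 1 of its 3 TSS regions, the main one, was found in all libraries. Both peaks of replicate 1 lay in it, and replicates 2 and 3 each had a second region of their own. The main region, chr6:127149221-127151022, lay at the 5′ end of the gene, within reach of the noncoding 9330179D12Rik as well, and had its summit 1408, 1414 and 1193 bp downstream of the nearest start site. Ccnd2 spans 27.03 kb and had neither intragenic nor distal peaks. Its 5 clustered start sites belonged to 1 promoter, and the other 2 start sites, both of noncoding transcripts, had no peak.

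Ccnd3, by contrast, had peaks spread over most of its 94.6 kb. Its start sites fall into 2 groups of coding transcripts, an upstream promoter with 11 start positions (chr17:47505051-47505241) and an internal promoter with 8 (chr17:47593436-47597164). The upstream promoter had fold enrichments of 3.93, 4.001 and 3.68 (3.87 ± 0.171), on 12, 13 and 12 fragments. The internal promoter had 7.19, 8.33 and 9.43, on 24, 29 and 28 fragments. In every library the internal promoter was the more enriched, with no overlap of the ranges and a ratio of 1.83, 2.08 and 2.57 (2.16 ± 0.374). An exact two-sided sign-flip permutation test over the 3 libraries gave p = 0.25, the smallest value it can give with n = 3. The Ccnd3 level quoted above is therefore that of the internal promoter, and with the upstream promoter alone it would be 3.87.

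Between the promoters, 12 intragenic regions were found in Ccnd3, of which 5 were present in all libraries. All 5 lay in introns, with summits 3.31, 6.51, 18.4, 26.8 and 37.0 kb downstream of the first start site. The first, chr17:47508232-47508789, was the strongest, with 5.96, 4.76 and 5.59 (5.44 ± 0.612), and the means of the others were 3.78 to 5.08. On average all but the one at 18.4 kb were above the upstream promoter. The strongest peak in the window of Ccnd3 was distal. It lay 2.73 kb upstream of the gene, at the TSS of Taf8, a subunit gene of the general transcription factor TFIID, with 18.9, 20.3 and 24.3 (21.1 ± 2.79). A second distal region near the start sites of Bysl, Med20 and Gm20517 reached 12.8 ± 2.37. Both were above the Ccnd3 promoters in every library.

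The kinases Cdk4 and Cdk6 had similar TSS levels and quite different surroundings. Fold enrichment at the Cdk4 TSS was 8.39, 8.13 and 9.89 (8.80 ± 0.952). At Cdk6 it was 6.50, 9.83 and 11.3 (9.21 ± 2.46). The 2 ranges overlapped, Cdk6 being lower in replicate 1 and higher in replicates 2 and 3, and the exact permutation test of their ratio gave p = 1. The fragments at the Cdk6 summit, 21, 33 and 39, had Poisson intervals of 13.0 to 32.1, 22.7 to 46.3 and 27.7 to 53.3, and these overlapped between all libraries.

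Cdk4, a gene of 4.39 kb, had 1 TSS region of 934 bp (chr10:127063602-127064535) and no intragenic peak. Of its 4 distal regions, 2 were found in every library, at 5.03 and 6.74 on average, near the start sites of Tspan31 and Agap2 respectively. The Agap2 region was uneven between libraries, at 5.44, 9.62 and 5.16.

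Cdk6 had the most extensive acetylation of the list. Its 5 coding start positions were spread over chr5:3341485-3344312, and TSS peaks there covered 3800, 3858 and 4424 bp, in replicate 3 as 1 unbroken peak. Peaks of all classes in the window covered 13175, 17161 and 20131 bp, compared with 5894 to 7972 bp for Ccnd3, which was next by its mean. Most of that was intragenic, with 21, 28 and 31 intragenic peaks covering 8235, 11943 and 14951 bp. Replicate 1 had the fewest and replicate 3 the most, although replicate 2 had the longest list of peaks overall.

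**Figure D2:**
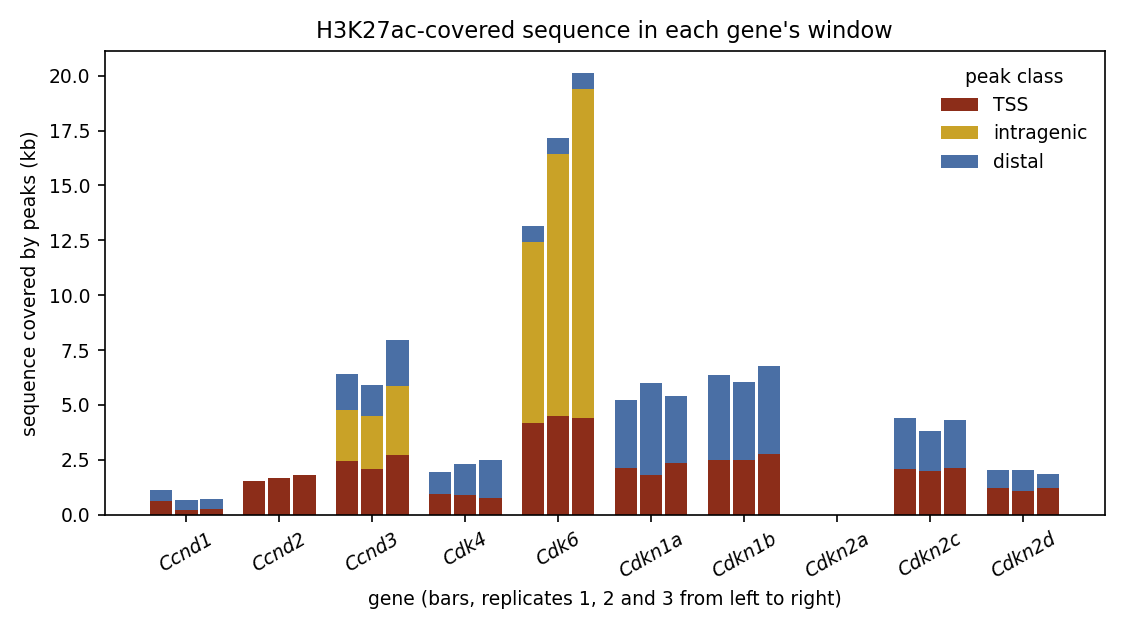
Sequence covered by H3K27ac peaks (kb, y axis) in the window of each gene (x axis), with 1 bar per library in the order replicate 1, 2 and 3 and colours for TSS, intragenic and distal peaks. Cdk6 had 13175 to 20131 bp, mostly intragenic. Ccnd3 was the only other gene with intragenic peaks, and Cdkn2a had no covered sequence.

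Merging the libraries gave 44 intragenic regions in Cdk6, of which 9 were found in all libraries, 9 in 2 and 26 in 1. Their fold enrichments were modest, from 2.75 to 7.82. The reproducible ones all lay in introns, with summits 39.9, 40.8, 63.7 and 97.8 kb downstream of the first start site and 5 more between 150 and 160 kb. The highest by its mean, chr5:3497089-3497520, had 4.95, 5.91 and 7.82 (6.23 ± 1.46) on 20, 25 and 34 fragments. The region chr5:3404338-3406000 had 5.17, 6.08 and 7.37 (6.21 ± 1.11), higher in replicates 1 and 2, and chr5:3500539-3502627 had 4.13, 5.91 and 7.75 (5.93 ± 1.81). In each of these 3 regions replicate 1 was lowest and replicate 3 highest, whereas the regions at 39.9 and 97.8 kb were highest in replicate 1 and lowest in replicate 3. The last of the 3 lies within 2.5 kb of the noncoding gene Gm42435.

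The Cdk6 count was set against long genes, since these offer more room for peaks. Only a minimum length was set, so the genes were not matched in size to Cdk6 (189.5 kb). Among the 1279 marked genes of 90 kb or more the median number of reproducible intragenic regions was 0 and the highest was 75. Cdk6, with 9, had more than 98.8% of them, and Ccnd3, with 5, more than 96.2%. These percentages are descriptions and were not tested. The genes most like Cdk6 in TSS fold enrichment, intragenic cover and distal cover over the 3 libraries were Gm20696 (scaled distance 0.607), Cux1 (0.685) and Tex2 (0.766), out of all protein-coding genes. Cux1 and Gm20696, like Cdk6, are long genes, of 319 and 409 kb, with 21.6 and 17.1 kb of intragenic cover.

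The reproducible intronic region of Cdk6 with the highest mean is printed below as an example of acetylation away from start sites. The sequence is the 200 bases around the summit, read from the RefSeq GRCm38 genome on the strand of the gene, with capitals as above.
Cdk6 intron, chr5:3497198-3497397, plus strand: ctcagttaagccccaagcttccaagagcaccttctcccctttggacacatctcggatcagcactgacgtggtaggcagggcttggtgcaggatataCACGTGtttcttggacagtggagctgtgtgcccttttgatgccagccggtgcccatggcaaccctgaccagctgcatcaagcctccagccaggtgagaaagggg
The Cdk6 sequence held an E-box next to its summit, and no other reproducible intronic region of Cdk6 held one. This motif was found in 3.55% of the 14280 regions present in every library. Across the windows, summits of the 17 reproducible TSS regions had a median of 13 CpG in 200 bases, those of the 20 non-TSS regions near another TSS had 8.5, and those of the 13 regions away from any TSS had 3. The median over all 14280 regions was 13.

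**Figure D3:**
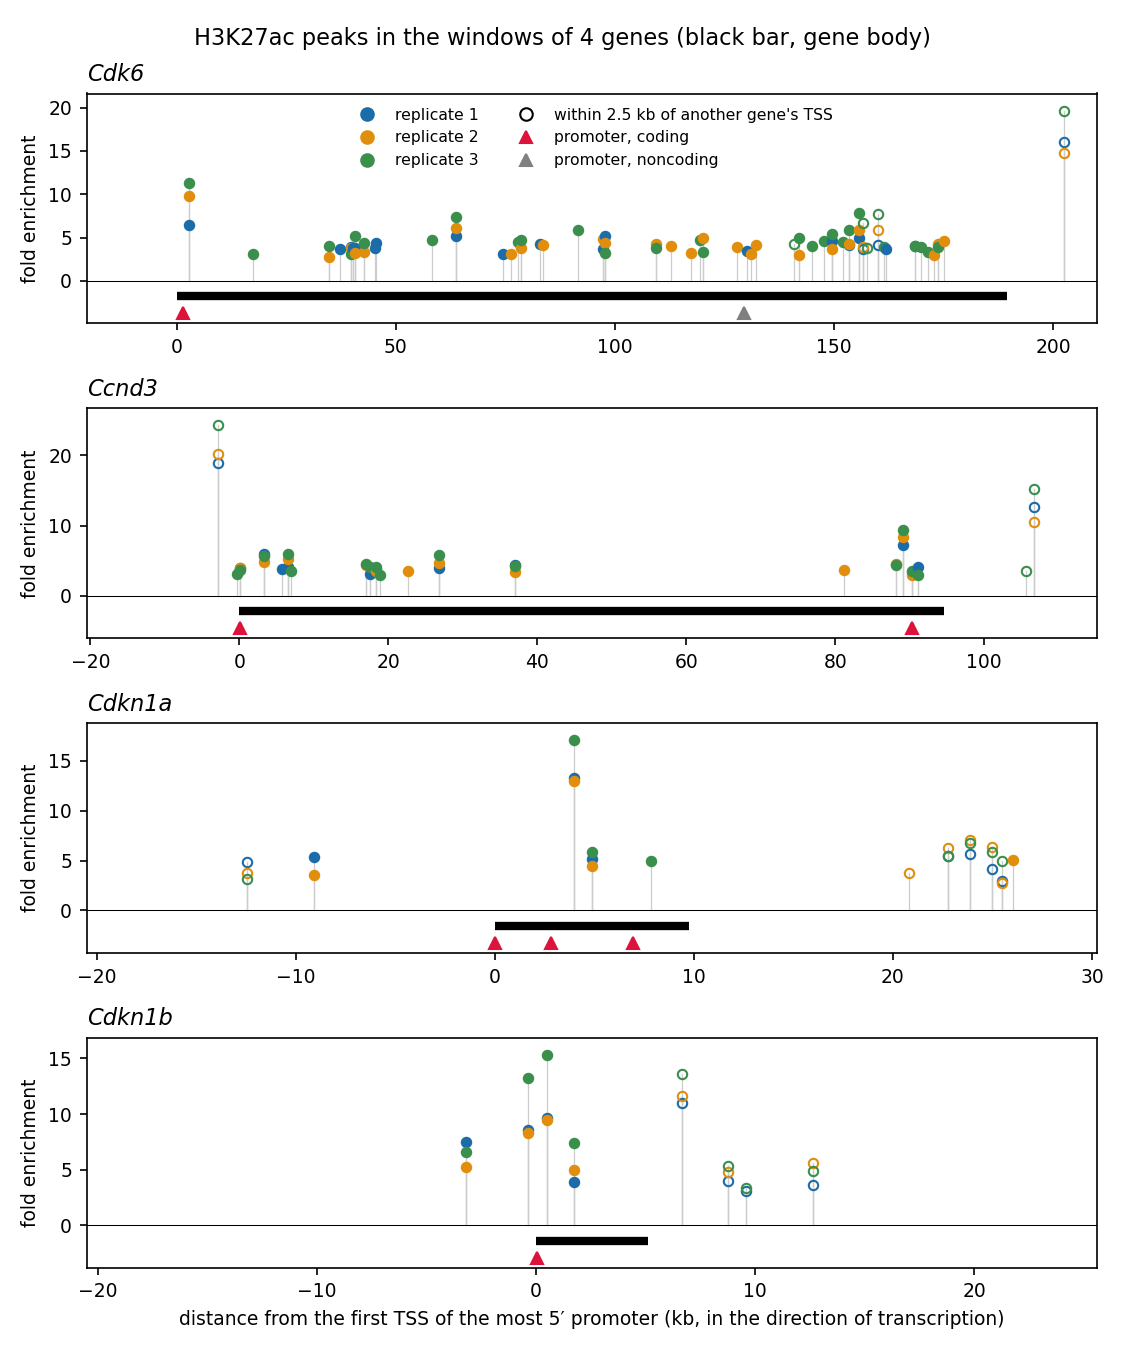
Fold enrichment (y axis) of every H3K27ac peak in the windows of Cdk6, Ccnd3, Cdkn1a and Cdkn1b by its distance in kb from the first TSS (x axis, strongest summit of each merged region). Points are libraries, black bars are gene bodies, and triangles are groups of start sites. Open points are intragenic or distal peaks within 2.5 kb of another gene's TSS. TSS peaks are filled even where another gene's TSS is that near. In the Cdk6, Ccnd3 and Cdkn1b windows open points outside the gene include peaks as high as or higher than most peaks of the gene itself.

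The 2 Cip/Kip inhibitors of the list had its highest mean TSS acetylation. Cdkn1c, a Cip/Kip gene outside the list, had no TSS peak in any library. Cdkn1a, a p53 target that arrests cells in G1, had 13.2, 12.9 and 17.1 (14.4 ± 2.298), on 45, 43 and 58 fragments. Cdkn1b, which holds cells in quiescence, had 9.62, 9.50 and 15.3 (11.5 ± 3.33), on 31, 37 and 52 fragments. Cdkn1a was higher than Cdkn1b within each library, and both stood above the other 7 marked genes on average. Their means stood above 73.1% and 58.6% of all marked genes. In both, replicate 3 was the highest library and the ranges of the 2 genes overlapped across libraries.

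The strongest acetylation of Cdkn1a lay near the second of its annotated promoters. Coding transcripts of Cdkn1a start at chr17:29090976-29090979, at chr17:29093769-29093781 and at chr17:29097900. No peak lay within 2.5 kb of the first in any library, and the nearest began 2.93, 2.98 and 2.96 kb away. The second had the peak of 13.2, 12.9 and 17.1, chr17:29093908-29095530, with its summit 1028, 1108 and 1198 bp downstream of the start site, inside an intron. A peak whose summit was nearest to the third was listed in replicate 3 only, at 4.97. All TSS acetylation of Cdkn1a found in every library thus lay downstream of its second start site, whose promoter was the CpG-richer of the printed pair. A noncoding gene, AC167363.2, is annotated on the opposite strand over that start site, so the peak lies within 2.5 kb of its TSS too. A second region directly downstream had 5.12, 4.501 and 5.85 (5.16 ± 0.678) and lay within 2.5 kb of both the second and the third start site.

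Around Cdkn1a, 8 distal regions were found, of which 5 were in all libraries. Of these, 4 lay downstream near the TSS of Rab44, at 3.53 to 6.51 on average, and the fifth, 3.91 ± 0.859, near that of the noncoding RNA gene Trp53cor1. None reached the TSS peak. The protein-coding genes most like Cdkn1a were Actr8 (scaled distance 0.0922), Scaf1 (0.103) and Stip1 (0.125), with mean TSS fold enrichments of 14.3, 14.9 and 14.7 and no intragenic cover.

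Cdkn1b had 3 regions at its promoter, all in every library. The strongest, chr6:134920427-134921653, began just past the first start site and had the values given above. The region before the start site, chr6:134919342-134920331, had 8.58, 8.29 and 13.2 (10.03 ± 2.77), and the third, downstream, had 3.89, 5.00 and 7.36 (5.42 ± 1.77). In all 3 regions replicate 3 was the highest. TSS peaks of Cdkn1b together covered 2503, 2514 and 2747 bp.

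Beyond the 3′ end of Cdkn1b lay a further broad region, chr6:134926566-134928805, with 10.96, 11.6 and 13.6 (12.0 ± 1.36). It spans 2240 bp within 2.5 kb of start sites of the noncoding genes Lockd and Gm44238, and of no coding gene. It was higher than the Cdkn1b promoter in replicates 1 and 2 and lower in replicate 3. A distal region upstream of Cdkn1b had 7.47, 5.28 and 6.56 (6.44 ± 1.103) and lay within 2.5 kb of no annotated start site.

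The INK4 genes of the list divided into 2 acetylated members and 1 without a peak. Cdkn2c, encoding p18, had TSS fold enrichments of 7.51, 6.50 and 9.24 (7.75 ± 1.38). Cdkn2d, encoding p19, had 6.32, 7.39 and 6.70 (6.80 ± 0.544). Their ranges overlapped, Cdkn2d being the higher in replicate 2 only. Both were in the lower part of the marked genes, above 31.4% and 23.3% of them.

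At Cdkn2c, 2 of 3 TSS regions were found in all libraries, both with summits downstream of its first start site, with means of 7.75 and 7.41. Its 3 distal regions were all reproducible, and 2 of them lay near start sites of Faf1 at 10.2 ± 1.69 and 6.53 ± 1.23, while the third lay near the noncoding 9630013D21Rik at 8.20 ± 0.864. Only the stronger Faf1 region was above the Cdkn2c promoter in every library. At Cdkn2d, a gene of 3.00 kb, 3 TSS regions were found in all libraries, of which the one nearest the 3′ end was also within 2.5 kb of the Kri1 TSS. The strongest peak in its window was that of Kri1, at 15.0, 7.25 and 14.0 (12.1 ± 4.23). It exceeded the Cdkn2d promoter by far in replicates 1 and 3 and was slightly below it in replicate 2.

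Cdkn2a encodes p16 and ARF from the promoters printed above, and is known as a locus silenced by Polycomb complexes in normal proliferating cells. Neither promoter, nor the 20.2 kb gene body, nor the 20 kb on either side, had a peak in any library. The nearest peak lay 137, 136 and 137 kb from the gene. The neighbouring Cdkn2b, an INK4 gene outside the list that encodes p15, also had no TSS peak. Its nearest peak, which was the same one, lay 169, 168 and 168 kb away. The smallest listed summits held 8, 8 and 9 fragments, and where the local background is higher, larger summits may also go unlisted. The absence is therefore one of called peaks.

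Ordered by mean TSS fold enrichment, the 9 genes ran Cdkn1a, Cdkn1b, Cdk6, Cdk4, Ccnd2, Ccnd3, Cdkn2c, Cdkn2d and Ccnd1. Of the 8 neighbouring pairs, 3 differed one way in every library. These were Cdkn1a over Cdkn1b by a log2 ratio of 0.35 ± 0.17, Cdk4 over Ccnd2 by 0.06 ± 0.05 and Cdkn2d over Ccnd1 by 0.99 ± 0.29. The exact two-sided sign-flip permutation test gave p = 0.25 for each, adjusted to 0.667 over the 8 pairs, and p = 0.5 to 1 for the remaining 5. The test cannot pass a threshold of 0.05 with 3 libraries. Of all 36 pairs, 26 were ordered one way in every library and 20 had ranges that did not overlap. Genes from Cdkn1b to Cdkn2d in this order were mostly not separated from their neighbours beyond the spread between libraries.

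**Figure D4:**
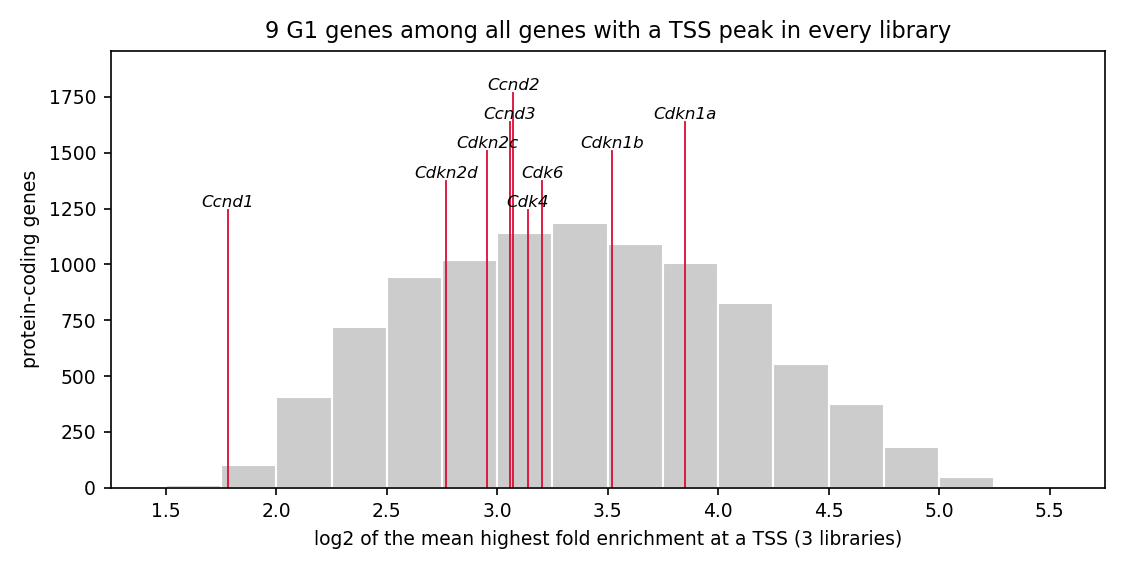
Number of protein-coding genes (y axis) by the log2 of their mean highest TSS fold enrichment over 3 libraries (x axis), for the 9637 genes with a TSS peak in every library. Red lines mark the 9 G1 genes, of which Cdkn1a and Cdkn1b lie above the median of 10.2 in fold enrichment, 6 lie below it in the body of the distribution, and Ccnd1 lies at its lower end.

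Most other genes examined of the cell cycle pathway, from G1 to M phase, also carried H3K27ac at their start sites. Of 29 other genes of the pathway, 25 (86.2%) had a TSS peak in every library, beside the 43.9% of all protein-coding genes. Their median of mean TSS fold enrichments was 10.2, equal to that over all marked genes, and that of the 9 G1 genes was 8.41. All 3 pocket protein genes were marked, with a median of 12.7, as were 9 of 10 E2F and DP genes with 11.1. The 7 genes of S and M phase cyclins and kinases were all marked and had a median of 7.69. Of the genes for activating kinases and phosphatases 3 of 4 were marked (9.61), and of those for inhibitor turnover 3 of 3 (13.1). Both remaining inhibitor genes, Cdkn1c and Cdkn2b, had no TSS peak in any library, and E2f7 and Mnat1 had one in 2 libraries. The nearest peak to Cdkn1c, encoding p57, lay 52.8 to 52.9 kb from it.

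The highest levels of the pathway were found at E2f3 (22.9, 24.8 and 18.9, mean 22.2 ± 3.00), an activating E2F, and at Tfdp1 (19.5, 21.8 and 24.4, 21.9 ± 2.46), the dimerisation partner of E2F proteins. Fbxw7, a ubiquitin ligase subunit that directs cyclin E for degradation, followed at 17.0, 16.9 and 21.2 (18.3 ± 2.47). In all libraries these 3 were above the values of Cdkn1a in the same library. Among the pathway genes with a peak in every library the lowest were Ccnb2 (5.28 ± 0.254) and Cdk7 (5.40 ± 1.32), with Ccne1 at 6.43 ± 1.47, and all 3 were above Ccnd1 in every library. E2f7, with a peak in 2 libraries only, was at 2.70 and 3.20 in replicates 1 and 3.

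Over all 10 windows the libraries held 74, 87 and 85 peaks (82 ± 7), of which 23, 26 and 23 were TSS peaks, 28, 36 and 40 intragenic and 23, 25 and 22 distal. Covered sequence was 17.6, 16.7 and 18.5 kb for TSS peaks and 14.1, 14.5 and 14.9 kb for distal peaks, a narrow spread. Intragenic cover was 10.6, 14.3 and 18.1 kb, and this came from Cdk6 and Ccnd3 alone. These are the longest genes of the list, and the 2.5 kb rule left short genes little or no intragenic sequence. Of the distal peaks, 21, 20 and 20 lay within 2.5 kb of the TSS of another gene.

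Merging gave 111 regions, of which 50 were found in all libraries, 16 in 2 and 45 in 1. TSS regions were found in all libraries in 17 of 29 cases (58.6%, Wilson 95% interval 40.7 to 74.5%), distal regions in 19 of 26 (73.1%, 53.9 to 86.3%) and intragenic regions in 14 of 56 (25%, 15.5 to 37.7%). Non-TSS regions near the TSS of another gene were reproducible in 76.9% and those away from any TSS in 23.2%. For the whole lists the shares were 59.6% within 2.5 kb of a TSS and 16.7% away from one. Regions of a gene share its surroundings and are not independent, so these shares were not tested against each other.

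In 6 of the 9 windows with peaks the strongest reproducible region was not a TSS region of the gene itself. The median over genes of the highest TSS fold enrichment was 0.780, 0.766 and 0.780 of that of the highest non-TSS fold enrichment (0.776 ± 0.00786, exact permutation p = 0.25, the smallest possible). When non-TSS peaks within 2.5 kb of another gene's TSS were left out, an alternative chosen after seeing the data, the ratio turned to 1.32, 1.54 and 1.44 (1.44 ± 0.110, exact permutation p = 0.25). It was then based on 4, 5 and 3 genes with non-TSS peaks. With the median in place of the highest fold enrichment of a class, and neighbouring promoters still counted, it was 1.28. The direction of this ratio therefore depended on both choices.

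Long stretches of acetylation were ranked in the manner of super-enhancers, clusters of strongly acetylated elements. Peaks no further apart than 5 times the TSS window were stitched, ranked by the sum of fold enrichment times length, and called past the point where the ranked curve has a slope of 1. This gave 1383, 1083 and 1190 super-enhancers among 11779, 12327 and 11525 stitched regions. The study ranked tag counts instead and reported far fewer super-enhancers in at least 2 of its 3 samples. The calls here are therefore more permissive and are not those of the study. Of the 10 genes, 4 (Cdk6, Cdkn1a, Cdkn1b and Cdkn2c) were assigned one in at least 2 libraries, beside 8.3% of all protein-coding genes and 18.5% of those with a TSS peak in every library. The count was 2 without replicate 1 and 2 without replicate 3, and 2 when TSS peaks were left out before stitching.

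Cdkn1b ranked 174, 170 and 127 and was the highest of the list in every library. Its region spanned 16.3 to 16.8 kb and 8, 7 and 9 peaks, from the upstream region through the promoter to the Lockd and Gm44238 peaks. The promoter region of Cdk6 ranked 1368, 620 and 375 and so passed in all 3 libraries. It passed closely in replicate 1, where 1383 regions were called. This region spanned 4.11, 4.37 and 4.42 kb with 3, 4 and 1 peaks, so in replicate 3 it was not a cluster. Cdkn1a ranked 940, 1398 and 1152 and Cdkn2c 599, 1165 and 681, each past the point in replicates 1 and 3 and below it in replicate 2. The Cdkn2c region, of 20.3 to 20.7 kb, included the Faf1 and 9630013D21Rik peaks. Ccnd3 ranked 1916, 2115 and 1610 and was not called.

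The intronic peaks of Cdk6 were stitched differently in each library. In replicates 2 and 3 they formed regions of 78.2 kb with 21 peaks and 33.2 kb with 16 peaks, ranked 433 and 411, which were past the point. In replicate 1 the corresponding region had 19.2 kb and 9 peaks, ranked 2249 and was not called. These regions lay 94.3 to 147 kb from the nearest coding TSS of Cdk6 and were assigned to a nearer gene by the rule of closest TSS, so they are not part of the count above.

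**Figure D5:**
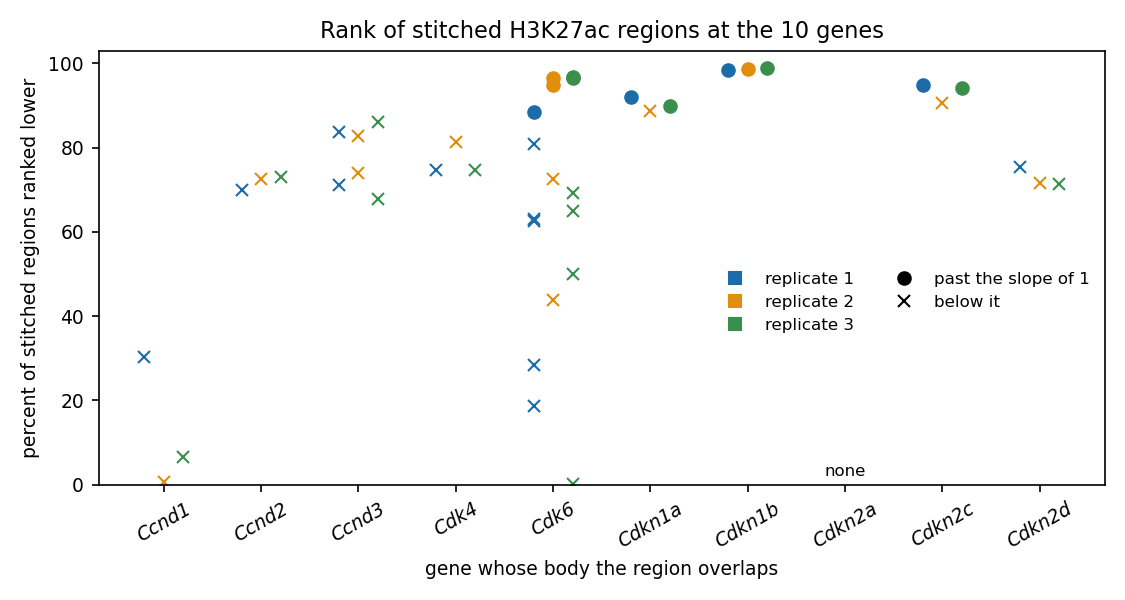
Percent of stitched regions ranked lower (y axis) for each stitched H3K27ac region that overlaps the body of a gene (x axis), by library. Circles are regions past the slope of 1 and crosses are regions below it. Cdkn1b lies at 98.5 to 98.9% in all libraries, Cdk6 has regions from its promoter and introns on both sides of the point, and Cdkn2a has none.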

How the data were processed

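H3K27ac was measured by ChIP-seq in 3 libraries of BcorΔE9-10 KL cells. The authors trimmed single-end reads, used Bowtie2 for alignment to GRCm38, discarded duplicates and ran the peak caller on every library by itself (the submitters' processing notes name MACS2 2.1.1 and cutadapt 1.7); the control and settings are not given in the sources used here. The deposited lists give a fold enrichment, which is a ratio of fragments at a summit to local background within a library, with 1 added to both. They also hold the −log10 of the p-value and of the q-value deposited by the authors, and a score deposited by the authors that was not used.

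Rows with the same interval were joined into 1 peak, and the highest of their fold enrichments was kept. Fold enrichment and p-value were solved together for the fragments at each summit (100% of rows, against 1.25 to 1.70% after shuffling), which gave a depth of 18.04 to 19.26 M reads for fragments of 200 bp. The third library had been scaled to its control by 0.983. Gene models were GENCODE M21, all 10 genes having 1 coding record, and no peak ended beyond 99.91% of the length of a RefSeq GRCm38 chromosome. Coordinates count from 1. A region was merged from peaks sharing 1 bp. Start sites within 2.5 kb of each other were taken as 1 promoter, a definition chosen after seeing the data. Likeness between genes was a Euclidean distance over TSS fold enrichment, intragenic cover and distal cover, each as log2(1 + value) and scaled to an SD of 1.

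Statistics were means ± SD over libraries and exact two-sided sign-flip permutation tests, adjusted by Benjamini-Hochberg over pairs (Python 3.11.15, numpy 2.4.6, scipy 1.17.1). Classification and recovery of fragments were tested on simulated data. The genes, the pathway list and the tests were chosen with earlier results of these data known. All 10 genes were named with values, and of the pathway list those without a peak and the 3 highest and 3 lowest; other genes were named where their TSS lay within 2.5 kb of a counted peak or where they were closest to Cdk6 (most cover) or Cdkn1a (highest TSS level). Alternatives were a −log10 q of at least 5, TSS windows of 1 and 5 kb, coding start sites only, windows of 10 and 50 kb, a reciprocal overlap of 50%, medians in place of highest values, summits in place of peak edges, other stitching and ranking, and leaving out each library. All other samples were not analysed here. A marker gene of the sort and a peak sequence are not reported here.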

Additional observations from a re-analysis of the deposited data

How the results depend on the processing

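The count of genes with a TSS peak in every library was 9 without each library in turn, and 8 with a −log10 q of at least 5, where Ccnd1 dropped out, or with the most 5′ promoter only (chosen after seeing the data), where Cdkn1a dropped out. Peaks per library were 45 with a −log10 q of at least 5, 72.3 and 95.3 with windows of 10 and 50 kb, 57.7 without non-TSS peaks near another TSS (chosen after seeing the data), and 79.5 to 86 without single libraries. The ratio of TSS to non-TSS fold enrichment reversed to 1.28 with medians of a class and to 1.44 without non-TSS peaks near another TSS (exact permutation p = 0.25 for both), and was 0.773 to 0.780 without single libraries. Super-enhancers were assigned to 2 genes when TSS peaks were left out before stitching, to 2 without replicate 1, 4 without replicate 2 and 2 without replicate 3. Without single libraries the pathway count was 25 to 26 and neighbouring pairs one way 3 to 4. The reproducible share of TSS regions exceeded that of non-TSS regions by 18.4 points with all libraries and by 6.95 to 26.4 without single libraries. With all libraries the 95% half-width was 20.8 points, taking regions as independent, so the interval included 0. Non-TSS regions pooled intragenic ones (25% reproducible) with distal ones (73.1%), and the distal share was above the 58.6% of TSS regions. Of the single-gene levels recomputed under other settings, 49 were unchanged and 3 moved by more than 1 SD. Ccnd3 was at 21.1 and Cdkn2d at 12.1 with a TSS window of 5 kb, which takes in peaks near Taf8 and Kri1. Ccnd3 was at 3.87 with the upstream promoter only. Each level is that of the highest TSS peak, so settings that keep this peak and add no higher one cannot change it. No paired analysis was possible because the 3 libraries form a single group. No listed summit held fewer than 8 fragments, and acetylation too weak to be called as a peak cannot be seen.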
